A study of Homo sapiens with 15 samples.

Results

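The genes described are 10 transcription factors of dorsal spinal cord interneurons, LBX1, LMX1B, TLX3, POU4F1, GBX1, LHX1, LHX5, LHX2, LHX9 and PTF1A, out of 17999 genes with a deposited expression value. They were chosen by name for their known roles, with no threshold on a measured value but with earlier results of these data known. Their levels were followed through 15 RNA-seq libraries of self-renewing neuromesodermal progenitors (srNMPs), their derivatives and undifferentiated HUES9 cells. The srNMPs can form both spinal cord and skeletal muscle. The srNMPs and all derivatives came from H1 and HUES9, established human embryonic stem cell lines with a wild-type genotype, and no transgene is named in the labels. Dorsal neurons, ventral neurons, srNMPs at passage 8, srNMPs at passage 25 and neuron progenitors after 7 days of the RABC or the RASS induction each had 1 H1 and 1 HUES9 library. RABC and RASS are abbreviations that the labels do not spell out. Undifferentiated embryonic stem cells (ESCs) and skeletal muscle at day 40 and at day 50 had 1 HUES9 library each. Levels are in FPKM, fragments counted per unit of transcript length and scaled by sequencing depth, so levels of different genes can be compared per length.

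Dorsal interneurons arise in layers of the embryonic spinal cord that are numbered from the roof plate downwards, dI1 to dI6. LHX2 and LHX9 mark the dI1 class, the offspring of ATOH1 progenitors, while LBX1 marks the deeper classes dI4 to dI6. Within the LBX1 domain, LMX1B and TLX3 mark excitatory, glutamatergic dI5 neurons, and PTF1A in progenitors precedes the inhibitory dI4 neurons, which express LHX1, LHX5 and PAX2. Later-born neurons of the dorsal horn repeat this division into a TLX3 and LMX1B excitatory type and a PTF1A-dependent inhibitory type. POU4F1 (BRN3A) is shared by several dorsal classes and by peripheral sensory neurons, and GBX1 is a homeobox gene of dorsal horn neurons. LBX1 has a separate role outside the nervous system, in muscle precursors that migrate into the limbs.

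The libraries were of like depth, 0.954 to 1.051 of their mean as judged from the steps between low values, and 10785 to 12102 genes reached 1 FPKM in each. The values of all 10 factors were whole multiples of the value of 1 fragment, within 0.01 of a fragment, in every library. LBX1 stood on 5160 and 4337 fragments in the H1 and HUES9 dorsal neurons, TLX3 on 1443 and 522, and PTF1A on 77 and 200. A value listed at 0 allows up to 3 fragments, and this floor covers counting error only. The RASS libraries go against their line labels. The HUES9 minus H1 differences of the RASS pair correlated across 14129 genes at -0.533 to -0.167 with those of the 5 other pairs, which correlated with each other at 0.0691 to 0.377, and 42 of 42 autosomal genes that marked the lines in the other pairs were reversed in the RASS pair. The RASS libraries are therefore named as labelled, and comparisons with RASS are also given with the lines of its libraries exchanged. All 15 libraries share 1 fit with a cell line term, so the RASS labels also enter the spread of comparisons without RASS. With these lines exchanged, 397 genes were called between dorsal and ventral neurons (288 as labelled). For dorsal neurons against RABC, 3202 were called (2470 as labelled). In bulk RNA, fewer cells of a type and less RNA per cell cannot be told apart.

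Promoters, taken as 250 bases before to 50 bases after the RefSeq gene start (GRCh38.p14), are shown for 4 factors that were high together in dorsal neurons. TLX3 and LMX1B are the excitatory pair whose levels followed each other, and GBX1 had the smallest standard error between dorsal and ventral neurons. POU4F1 had the highest level of the 4 outside the dorsal neurons, 11.9 FPKM in the H1 RABC library. Capitals mark TAAT or its reverse complement ATTA, the core of many homeodomain sites (matches may overlap each other), and CAGCTG, a palindromic E-box, on either strand.
TLX3 promoter (chr5:171308998-171309297, plus strand): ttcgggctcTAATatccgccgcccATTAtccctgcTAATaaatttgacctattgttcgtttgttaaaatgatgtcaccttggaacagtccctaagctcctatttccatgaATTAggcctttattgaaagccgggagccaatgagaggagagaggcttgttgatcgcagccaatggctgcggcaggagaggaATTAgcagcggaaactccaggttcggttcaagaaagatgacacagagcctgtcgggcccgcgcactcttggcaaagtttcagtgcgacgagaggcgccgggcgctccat
LMX1B promoter (chr9:126613678-126613977, plus strand): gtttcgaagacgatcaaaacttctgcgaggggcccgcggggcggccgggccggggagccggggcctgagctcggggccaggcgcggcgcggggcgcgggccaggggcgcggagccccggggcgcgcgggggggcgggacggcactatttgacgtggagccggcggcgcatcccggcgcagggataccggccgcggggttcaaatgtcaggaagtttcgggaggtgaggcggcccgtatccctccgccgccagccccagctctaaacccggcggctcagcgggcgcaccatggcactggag
GBX1 promoter (chr7:151167645-151167944, minus strand): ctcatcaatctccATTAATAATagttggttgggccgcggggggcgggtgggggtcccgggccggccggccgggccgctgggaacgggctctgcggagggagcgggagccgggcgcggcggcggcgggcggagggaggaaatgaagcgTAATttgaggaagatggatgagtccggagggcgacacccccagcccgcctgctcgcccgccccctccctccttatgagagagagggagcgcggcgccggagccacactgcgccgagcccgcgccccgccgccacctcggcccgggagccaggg
POU4F1 promoter (chr13:78603503-78603802, minus strand): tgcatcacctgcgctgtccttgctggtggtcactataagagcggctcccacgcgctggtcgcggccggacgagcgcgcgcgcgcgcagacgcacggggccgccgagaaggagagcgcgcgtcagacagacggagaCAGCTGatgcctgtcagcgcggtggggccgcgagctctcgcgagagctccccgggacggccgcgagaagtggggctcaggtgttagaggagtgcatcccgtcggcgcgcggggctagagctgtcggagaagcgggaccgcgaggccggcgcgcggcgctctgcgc
TAAT was found 5 times in the TLX3 promoter and 4 times in that of GBX1, and 0 times in those of LMX1B and POU4F1, where 50.2% of 35116 promoters of the same length held it. CAGCTG was found only in the POU4F1 promoter of these 4, once, with its first base at -115 from the start, and 17.9% of promoters held it. The promoters of LMX1B, POU4F1 and GBX1 were rich in CpG, with 42, 47 and 36 CpG and 75.3%, 72.3% and 73.3% GC, against medians of 14 CpG and 58.7% GC. The TLX3 promoter had 17 CpG and 51.3% GC. Neither motif was found in all 4 promoters, and 3 of the 4 were rich in CpG.

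Dorsal neurons were compared with ventral neurons, the comparison that asks how far dorsal interneuron genes separate the 2 kinds of neuron. Genes that reached 1 FPKM in any library were tested, 8 of the 10 factors among them. The 7 factors that reached it outside the dorsal neurons too were called higher in dorsal than in ventral neurons, by 3.59 to 5.74 on the log2(FPKM + 1) scale. PTF1A, with 0.219 FPKM or less elsewhere, was tested because of its dorsal values, so that its higher dorsal level followed from passing the filter. LHX2 and LHX9, the dI1 factors, stayed under 1 FPKM in all 15 libraries and were not tested. At an adjusted p under 0.05 in limma, 2.04% of the 14129 genes tested were called in either direction and 0.573% were called higher. The median change was 4.44 for those 7 factors and -0.04 for all genes. Both dorsal libraries were above all 13 other libraries for each of the 7, a pattern held by 4.67% of genes tested. LHX2 and LHX9 did not show it.

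**Figure D1:**
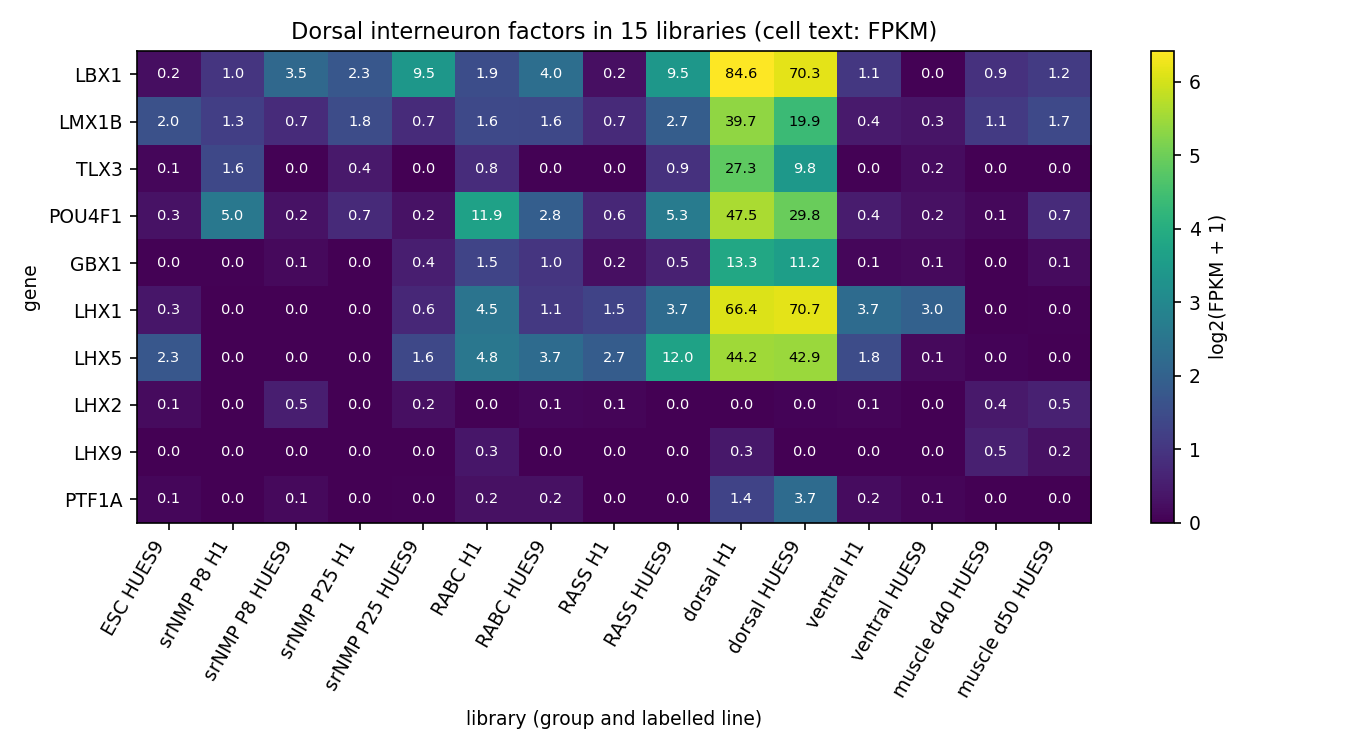
Levels of the 10 factors (rows) in the 15 libraries (columns, by group and labelled line). Color is log2(FPKM + 1), and the number in each cell is FPKM; the bright columns are the 2 dorsal neuron libraries, and LHX2 and LHX9 are dark throughout.

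LBX1, the factor that sets the dI4 to dI6 domain, had the highest mean of the 10 in dorsal neurons, although LHX1 was level with it in HUES9. It stood at 84.6 FPKM in H1 and 70.3 FPKM in HUES9 dorsal neurons, against 1.07 and 0.0339 FPKM in ventral neurons, the last of these being 2 fragments. The groups were far apart in both lines (log2 change 5.74 ± 0.88 SE, limma adjusted p = 0.0254). The highest LBX1 level outside the dorsal neurons was 9.54 FPKM in the RASS library labelled HUES9, so the lower dorsal library was 7.36-fold above it.

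The excitatory dI5 factors came next in order of role. LMX1B, a LIM homeodomain factor of glutamatergic dorsal horn neurons, had 39.7 FPKM in H1 and 19.9 FPKM in HUES9 dorsal neurons and 0.386 and 0.291 FPKM in ventral neurons (log2 change 4.44 ± 0.45 SE, limma adjusted p = 0.00567). TLX3, a homeobox factor that favors the glutamatergic over the GABAergic fate, had 27.3 FPKM in H1 and 9.76 FPKM in HUES9 dorsal neurons. In ventral neurons TLX3 was at 0.0191 and 0.157 FPKM, or 1 and 8 fragments (log2 change 4.01 ± 0.54 SE, limma adjusted p = 0.0170). For both genes the H1 dorsal library was the higher one. POU4F1, a POU-domain factor, had 47.5 FPKM in H1 and 29.8 FPKM in HUES9 dorsal neurons and 0.399 and 0.218 FPKM in ventral neurons (log2 change 4.89 ± 0.88 SE, limma adjusted p = 0.0435). Its dorsal and ventral values did not overlap, but its level in progenitors differed more between libraries, from 2.76 to 11.9 FPKM in RABC.

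The factors of inhibitory dorsal neurons were higher as well. LHX1, a LIM homeodomain factor, had 66.4 FPKM in H1 and 70.7 FPKM in HUES9 dorsal neurons against 3.72 and 2.997 FPKM in ventral neurons (log2 change 4.0 ± 0.51 SE, limma adjusted p = 0.0133). LHX1 is also used by ventral interneuron classes and motor neurons, and it was the highest of the 10 factors in both ventral libraries. LHX5, its paralog, had 44.2 and 42.9 FPKM in dorsal neurons against 1.79 and 0.121 FPKM in ventral neurons (log2 change 4.65 ± 0.70 SE, limma adjusted p = 0.0244). GBX1 had 13.3 and 11.2 FPKM in dorsal neurons against 0.0804 and 0.116 FPKM, or 5 and 7 fragments, in ventral neurons (log2 change 3.59 ± 0.21 SE, limma adjusted p = 0.000729). PTF1A, the bHLH factor that commits progenitors to the inhibitory fate, was the lowest of the 8, at 1.45 and 3.71 FPKM in dorsal neurons and 0.151 and 0.0583 FPKM in ventral neurons (log2 change 1.62 ± 0.24 SE, limma adjusted p = 0.0244). Since PTF1A passed the filter only through its dorsal values, this call is not support for a dorsal difference. The same limit holds for its calls in every comparison that includes dorsal neurons. Of the 8 factors, only PTF1A and LHX1 had the higher dorsal value in HUES9.

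LHX2 and LHX9, the LIM homeodomain pair of dI1 neurons, were at or near 0 in the dorsal neurons. LHX2 had 0.0118 FPKM in H1 and 0.0467 FPKM in HUES9, or 1 and 4 fragments, against 0.0596 and 0.0122 FPKM in ventral neurons. LHX9 had 0.336 FPKM, or 104 fragments, in the H1 dorsal library and was listed at 0 in the HUES9 dorsal library and in both ventral libraries, where a 0 allows up to 0.00959, 0.00977 and 0.010 FPKM. The dorsal and ventral values of LHX2 overlapped. Fitted without the filter on low values, LHX2 changed by -0.01 ± 0.15 (limma adjusted p = 1) and LHX9 by 0.21 ± 0.13 (limma adjusted p = 0.527).

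**Figure D2:**
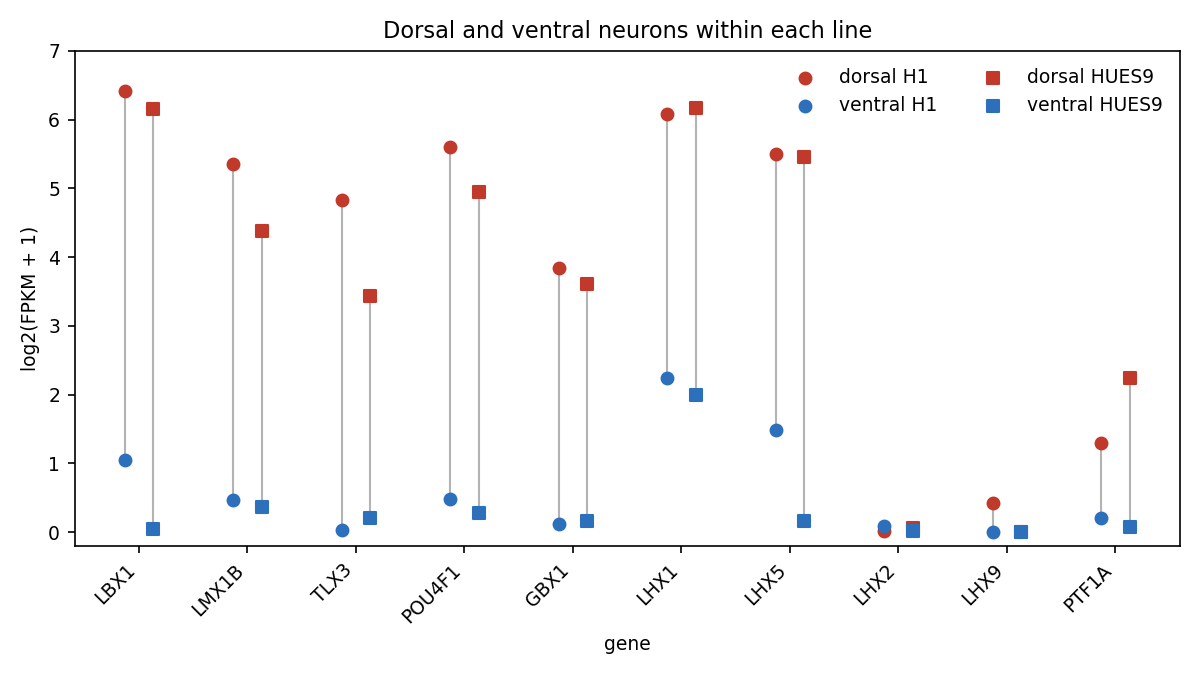
Levels of the 10 factors in dorsal (red) and ventral (blue) neurons, H1 as circles and HUES9 as squares, with a line joining the libraries of a cell line; the vertical axis is log2(FPKM + 1). The dorsal value lies above the ventral value in both lines for 8 factors, and LHX2 and LHX9 lie near 0.

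LMX1B and GBX1 were called under all 12 alternative settings, and no direction reversed. Calls of the other 6 were lost in 3 (LHX1, PTF1A), 4 (LBX1, TLX3, LHX5) or 6 (POU4F1) of the 12. A pseudocount of 0.1 ended the calls of LBX1 (limma adjusted p = 0.0761), TLX3 (0.104), POU4F1 (0.0708), LHX1 (0.0890) and LHX5 (0.105). Fitting only the 4 libraries compared ended those of TLX3 (0.0722) and PTF1A (0.17), and testing without the filter that of POU4F1 (0.0729). Leaving out the H1 dorsal library ended the calls of LBX1 (limma adjusted p = 0.0939), TLX3 (0.0587), POU4F1 (0.129) and LHX5 (0.0859), and leaving out the HUES9 dorsal library those of LBX1 (0.0853), POU4F1 (0.218), LHX1 (0.0872) and LHX5 (0.122). Without the H1 ventral library, TLX3 (0.0801), POU4F1 (0.179), LHX1 (0.05004) and PTF1A (0.0556) were not called, and without the HUES9 ventral library LBX1 (0.0736), POU4F1 (0.112), LHX5 (0.0665) and PTF1A (0.0820) were not. The counts of genes called over the whole table are 137 without the HUES9 dorsal library and 288 with it. Of these 81 were called higher, against 193 without the H1 dorsal library and 50 without the H1 ventral library.

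The other genes of these classes fell into those that moved with the factors and those that did not. Of 21 other dorsal interneuron genes tested, 6 were higher in dorsal neurons and 0 lower, with a median change of 0.33. Over all genes tested, 0.573% were called higher. PAX8 (61.7 and 42.1 FPKM in H1 and HUES9 dorsal neurons, 0.498 and 0.00740 in ventral neurons, log2 change 5.40 ± 0.63) and PAX2 (68.1 and 51.5 against 2.68 and 0.0529, 4.94 ± 0.77) mark inhibitory dI4 and dI6 neurons. SKOR1, an LBX1 corepressor, had 68.1 and 83.4 FPKM against 1.79 and 0.385 (5.28 ± 0.37), and its paralog SKOR2 was called too. PRDM13, a repressor downstream of PTF1A, had 9.35 and 30.9 FPKM against 0.00934 and 0.0192 (4.16 ± 0.47). DRGX, a homeobox gene of TLX3-positive neurons and of sensory neurons, had 23.0 and 3.79 FPKM against 0.0276 and 0.00943 (3.40 ± 0.57, limma adjusted p = 0.0351). Genes of the inhibitory LBX1 type were thus among the 6, while the excitatory type rested on DRGX. DRGX had 0.187 FPKM or less outside the dorsal neurons. It was tested because of its dorsal values, so its higher dorsal level followed from passing the filter. The count of 6 includes this call, which is not support for a dorsal difference. SKOR2 had means of 5.14 FPKM in dorsal neurons and 0.208, 0.0752 and 0.00338 FPKM in ventral neurons, RASS and RABC. The same limit holds for SKOR2 if it stayed under 1 FPKM in srNMPs, ESCs and muscle.

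Markers of the more dorsal classes dI1 to dI3 and of dI6 were low. BARHL1 and BARHL2, dI1 genes beside LHX2 and LHX9, had 0.426 and 0.610 FPKM in H1 dorsal neurons and were listed at 0 in HUES9. FOXD3, a dI2 factor, had 0.102 FPKM in H1 and 0 in HUES9, and ISL1, a dI3 factor, 0.346 and 0. ATOH1, the progenitor factor of dI1, had 0.0131 FPKM in H1 and was listed at 0 in HUES9. DMRT3 and WT1, markers of dI6, had 0.140 and 0.633 FPKM and 0.106 and 0.482 FPKM. PHOX2A had 0.120 and 1.01 FPKM, and BHLHE22, a factor of several dorsal classes, 0.978 and 2.09 FPKM against 26.1 and 8.39 in ventral neurons (limma adjusted p = 0.0823). By level, the dorsal libraries thus held LBX1 and genes of the dI4 and dI5 types. They held little of the dI1 to dI3 markers or of the dI6 markers DMRT3 and WT1.

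Some dorsal progenitor genes were high in the dorsal neurons and others were low. Of 15 tested, 4 were higher than in ventral neurons and 0 lower (median change 0.04), where 0.573% of all genes were called higher. ZIC1 (log2 change 7.04 ± 0.45), PAX3 (5.46 ± 0.85), PAX7 (4.24 ± 0.74) and GSX2 (3.90 ± 0.15), a homeobox gene of the progenitors of dI3 to dI5 and of later dorsal horn neurons, were the 4. GSX2 stood at 12.6 and 15.4 FPKM in H1 and HUES9 dorsal neurons and at 0 in both ventral libraries. It had 0.304 and 0.0168 FPKM in H1 and HUES9 RABC. GSX2 was tested because of its dorsal values, so its higher dorsal level followed from passing the filter. The count of 4 includes this call, which is not support for a dorsal difference. OLIG3, NEUROG1 and MSX1 had means of 0.0726, 0.0171 and 0.634 FPKM in dorsal neurons, against 101, 12.6 and 81.7 FPKM in RABC. In ventral neurons their means were 29.5, 2.28 and 0.946 FPKM, so OLIG3 stood higher there than in dorsal neurons, without a call. On the ventral side 2 of 7 progenitor genes (NKX6-2 and the ependymal gene FOXJ1) and 5 of 17 interneuron and motor neuron genes (SLC18A3, SLC5A7, LHX3, CHAT and GATA3) were lower in dorsal neurons and 0 higher, where 1.47% of all genes were called lower, with median changes of -2.77 and -2.96. LHX3, a LIM factor of motor neurons and V2 interneurons, had 0.0553 and 0.00912 FPKM in dorsal neurons and 13.9 and 10.6 FPKM in ventral neurons, the opposite of LHX1 and LHX5.

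Transmitter genes split the same way only in part. GAD2, an enzyme of GABA synthesis, had 21.6 and 14.5 FPKM in H1 and HUES9 dorsal neurons and 1.42 and 0.228 in ventral neurons (log2 change 3.44 ± 0.40, limma adjusted p = 0.00972), and was the 1 of 5 inhibitory genes called. GAD1 had 37.3 and 15.8 FPKM against 5.40 and 1.45 (limma adjusted p = 0.177). The vesicular transporter gene SLC32A1 had 25.7 and 19.1 FPKM against 3.89 and 0.247 (limma adjusted p = 0.0773), and the glycine transporter gene SLC6A5 38.1 and 27.9 FPKM against 4.82 and 0.117 (limma adjusted p = 0.0600). For these 3 genes both dorsal values lay above both ventral ones, as for 20.6% of genes tested, and no call was made. The share of all genes called higher was 0.573%. At an unadjusted p under 0.05 in limma, 4 of the 5 inhibitory genes passed. The share of all genes passing that looser threshold is not given here. Counts at that threshold, here and elsewhere, are therefore not support for a difference. SLC17A6, the glutamate transporter gene of excitatory neurons, had 17.6 and 10.3 FPKM in dorsal and 25.7 and 11.9 FPKM in ventral neurons, and 0 of 4 glutamatergic genes were called by limma (1 at an unadjusted p under 0.05, SLC17A8). Of 9 dorsal horn peptide genes 0 were called by limma (3 at an unadjusted p under 0.05: NPY, SST and GAL).

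**Figure D3:**
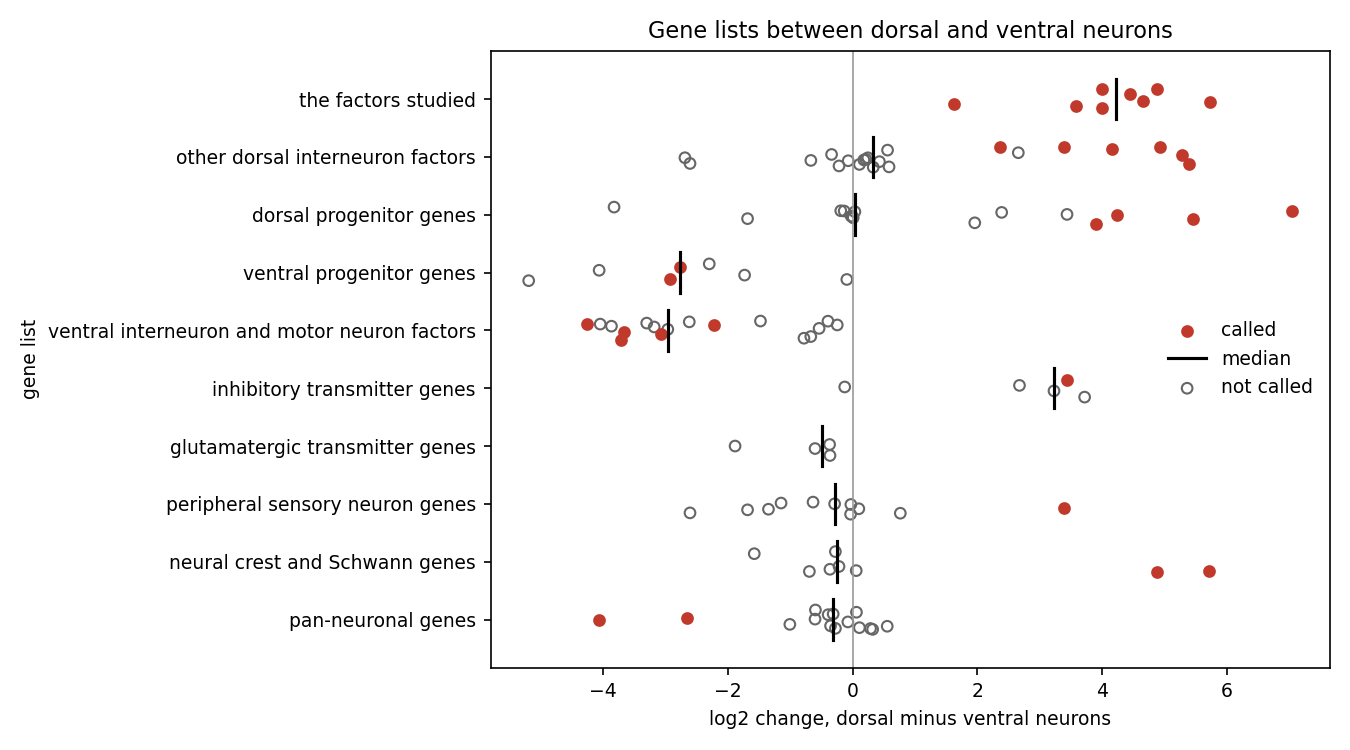
Log2 change (dorsal minus ventral neurons, horizontal axis) of each tested gene, by list (vertical axis). Filled points are called at a limma adjusted p under 0.05, open points are not, and the bar is the list's median; the factors studied lie to the right, at 1.62 to 5.74, and the ventral lists to the left.

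Markers of other cell types were read beside these values. Of 11 peripheral sensory neuron genes tested, 1 was called higher, DRGX, which was tested because of its dorsal values, and 0 were called lower. The shares over all genes tested were 0.573% higher and 1.47% lower, for this list and those that follow. Their summed level was 67.0 to 94.5 FPKM in dorsal and 81.7 to 91.1 FPKM in ventral neurons. RUNX3 and TLX2 were listed at 0 in both dorsal libraries, and ISL1 and RUNX1 stood at 0 to 0.346 FPKM there. Other genes of the list were present. NTRK2 had 48.7 and 46.6 FPKM in dorsal and 47.9 and 49.6 in ventral neurons, and NTRK3 4.58 and 7.99 against 2.75 and 3.63. SCN9A had 2.21 and 1.65 FPKM against 2.36 and 5.09. These 3 genes and DRGX were called higher in dorsal neurons than in RABC, where 10.7% of all genes were called higher. Of 8 neural crest and Schwann cell genes, TFAP2A (26.1 and 34.2 FPKM in dorsal neurons, log2 change 4.88 ± 0.82) and TFAP2B (65.0 and 42.6 FPKM, 5.72 ± 0.43), which dorsal horn inhibitory neurons also express, were higher and 0 were lower. The list summed to 113 to 197 FPKM in dorsal and 33.7 to 84.1 FPKM in ventral neurons, with SOX10, its defining factor, at 0.111 and 0.318 FPKM in dorsal and 1.23 and 4.86 FPKM in ventral neurons. Of 15 pan-neuronal genes, NEFL and NEFM were lower in dorsal neurons, and the sum was 2039 to 2635 against 3102 to 3812 FPKM. The part of these differences in the levels of the 10 factors was not tested.

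Some factors were nearly equal between the lines and others were not. In dorsal neurons, LHX1 and LHX5 were nearly equal between H1 and HUES9 (HUES9 level 1.06-fold and 0.971-fold that of H1), as was GBX1 (0.837-fold). TLX3 was 2.80-fold higher in H1 than in HUES9, LMX1B 1.998-fold and POU4F1 1.59-fold, and DRGX 6.08-fold. PTF1A went the other way, 2.57-fold higher in HUES9, as did PRDM13 (3.30-fold), PAX3 (2.02-fold) and PAX7 (2.66-fold). Other inhibitory genes did not follow PTF1A and were higher in H1, GAD1 by 2.37-fold, GAD2 by 1.49-fold, PAX8 by 1.47-fold, SLC6A5 by 1.37-fold, SLC32A1 by 1.35-fold and PAX2 by 1.32-fold. The sum of LHX1, LHX5, GBX1 and PTF1A was 1.87 times that of TLX3 and LMX1B in H1 and 4.34 times in HUES9. TLX1, the paralog of TLX3, had 0.129 FPKM in H1 and 9.40 FPKM in HUES9 dorsal neurons, and was named after its values were seen. Of 11985 genes at 1 FPKM in either dorsal library, 12.7% differed at least 2-fold between them, against 9.79% in the RABC pair and 6.92% in the RASS pair. With 1 library per line these differences have no replicate check, so line and culture cannot be told apart.

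**Figure D4:**
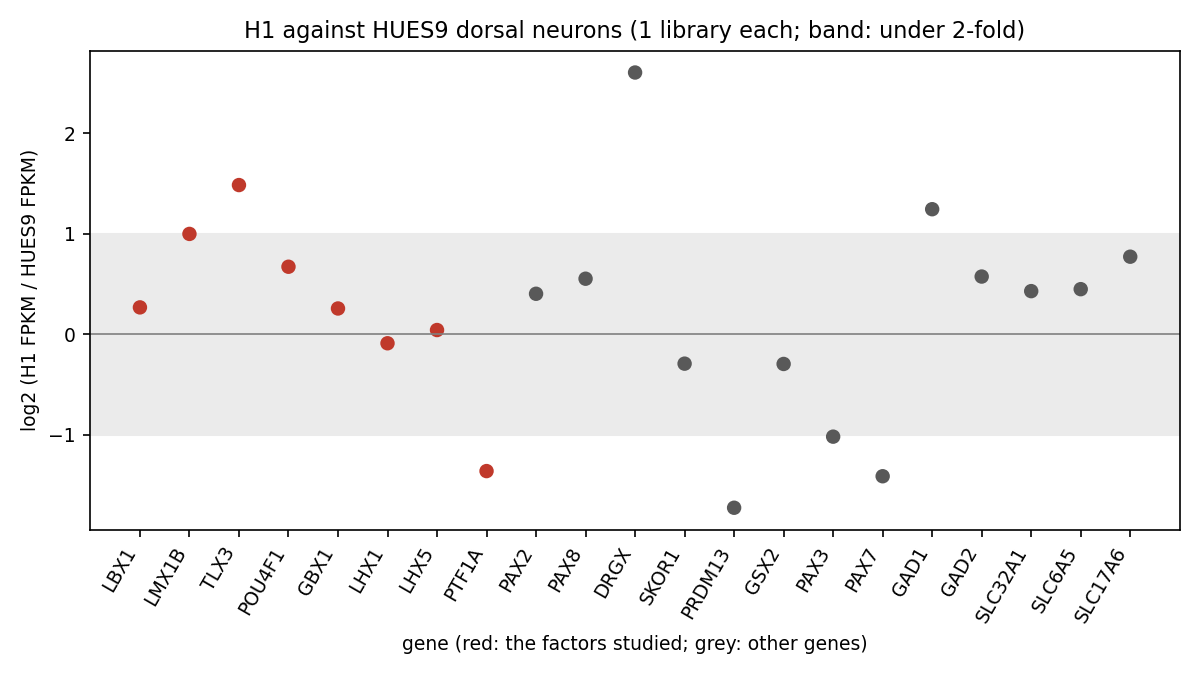
Log2 ratio of FPKM in H1 over HUES9 dorsal neurons (vertical axis), 1 library each, for the 8 tested factors (red) and 13 other genes of dorsal neurons (grey). The grey band marks differences under 2-fold; TLX3, DRGX and GAD1 lie above it, and PTF1A, PRDM13, PAX3 and PAX7 lie below it.

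The dorsal neurons were next set beside the RABC progenitors, and the ventral neurons beside RASS. The labels do not state which induction preceded which neurons, so these are comparisons of groups as labelled. In RABC at 7 days LBX1 had 1.85 FPKM in H1 and 3.96 FPKM in HUES9, and LHX1 4.54 and 1.10 FPKM, where LHX5 had 4.796 and 3.74 FPKM. LMX1B had 1.65 and 1.61 FPKM, GBX1 1.48 and 0.988 FPKM, TLX3 0.774 and 0.0183 FPKM, and PTF1A 0.219 and 0.218 FPKM. POU4F1 had 11.9 FPKM in H1, the highest of these values, and 2.76 FPKM in HUES9. Of the 8 factors, 7 were higher in dorsal neurons (6 of 7 without PTF1A), where 17.5% of genes were called in either direction 10.7% were called higher and 6.81% lower.

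The largest of these increases were those of LBX1 (log2 change 4.38 ± 0.88, limma adjusted p = 0.0194) and LHX1 (4.35 ± 0.51, limma adjusted p = 0.00419). TLX3 rose by 3.70 ± 0.54, LMX1B by 3.47 ± 0.45, LHX5 by 3.09 ± 0.70, GBX1 by 2.57 ± 0.21 and PTF1A by 1.48 ± 0.24. POU4F1 was not called (2.47 ± 0.88, limma adjusted p = 0.0943). It was called with only the 4 libraries compared (limma adjusted p = 0.0134), with the RASS lines exchanged (0.0195) and without both RASS libraries (0.0322). All 5 inhibitory transmitter genes rose too, by 3.29 (SLC6A5) to 4.07 (GAD2), as did SLC17A6 (2.68 ± 0.37), while OLIG3 (-5.95 ± 1.28) and NEUROG1 (-3.67 ± 0.78), genes of early dorsal progenitors, fell. Of the dI1 genes, ATOH1 had 16.9 FPKM and BARHL1 2.91 FPKM in the H1 RABC library against 0.406 and 0.0589 in HUES9. LHX9 had 0.299 FPKM in H1 and was listed at 0 in HUES9. LHX2 had 0.0230 and 0.0800 FPKM in these libraries.

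Single libraries decided several of these calls, and the number of genes called over the table fell from 2470 to between 347 and 1632. LBX1 was not called without the H1 dorsal library (limma adjusted p = 0.154), the H1 RABC library (0.0852) or the HUES9 RABC library (0.123). LHX5 was not called when any 1 of the 4 was left out (0.0802 to 0.177), LMX1B without the H1 dorsal library (0.0506), TLX3 without that library (0.0701) or the HUES9 RABC library (0.0669), and PTF1A without the HUES9 RABC library (0.0904). GBX1 and LHX1 were called in each of these cases. With a pseudocount of 0.1, LBX1 (limma adjusted p = 0.0767) and LHX5 (0.148) were not called.

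Between RASS and RABC, 0 of the 8 factors were called by limma, and at an unadjusted p under 0.05 only GBX1 was lower in RASS. The share called over the table was 0.517%, with 0.318% higher and 0.198% lower in RASS. In the RASS libraries labelled H1 and HUES9 LBX1 had 0.192 and 9.54 FPKM, and LHX5 2.66 and 12.0 FPKM. POU4F1 had 0.644 and 5.34 FPKM, LMX1B 0.712 and 2.74, LHX1 1.47 and 3.71, TLX3 0.0185 and 0.872, and GBX1 0.203 and 0.507 FPKM. PTF1A was listed at 0 in both, which allows up to 0.0551 and 0.0578 FPKM, against 0.219 and 0.218 FPKM in RABC. The RASS library labelled HUES9 was the higher for all 7 detected factors. GBX1 changed by -0.72 ± 0.21 (limma adjusted p = 0.322), and LBX1, LMX1B, TLX3 and LHX1 each by less than 0.10. With the RASS lines exchanged these estimates stay the same by construction and 0 of the 8 were called (limma adjusted p from 0.272 for GBX1), with 113 genes called over the table against 73. OLIG2, NKX6-2, ZIC1 and PRDM13 were called between the inductions.

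Ventral neurons were set against RASS in the same way. Of the 8 factors 0 were called by limma (1 at an unadjusted p under 0.05, LHX5), where 23.7% of genes were called, 13.8% higher and 9.98% lower. LHX5 had the largest estimate, -1.96 ± 0.70 (limma adjusted p = 0.0832), and it was called lower in ventral neurons with quantile normalization (-2.16, limma adjusted p = 0.0429). LMX1B was called lower without the RASS library labelled H1 (-1.70, limma adjusted p = 0.0391). With the RASS lines exchanged, LMX1B (limma adjusted p = 0.0553) and LHX5 (0.0695) came nearest to a call, 0 of the 8 were called, and 3990 genes were called over the table against 3354. LHX1 and PTF1A were not lower in the mean. LHX1 was at 3.36 ± 0.513 FPKM (SD, n = 2) in ventral neurons and 2.59 ± 1.59 in RASS. PTF1A had 0.151 and 0.0583 FPKM in ventral neurons and was listed at 0 in both RASS libraries.

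The difference between these changes was tested as 1 contrast, the change from RABC to dorsal neurons minus the change from RASS to ventral neurons. It was called for LMX1B (4.39 ± 0.64, limma adjusted p = 0.0434) and GBX1 (2.87 ± 0.30, limma adjusted p = 0.0151), where 0.545% of genes were called and 0.219% were called higher. The estimates for LBX1 (5.65 ± 1.24), LHX5 (5.05 ± 0.99), TLX3 (4.05 ± 0.76) and LHX1 (4.0 ± 0.72) were as large but were not called (limma adjusted p = 0.129, 0.0932, 0.0859 and 0.0763). POU4F1 (3.78 ± 1.25) and PTF1A (1.34 ± 0.34) were not called either. Both calls were lost with a pseudocount of 0.1 (limma adjusted p = 0.0823 for LMX1B and 0.134 for GBX1) and with only the libraries compared (0.110 and 0.0853), and that of LMX1B also without the filter (0.0691). That of GBX1 was lost without the H1 RABC library (limma adjusted p = 0.0576), and that of LMX1B without any 1 of the dorsal, RABC or ventral libraries (limma adjusted p = 0.0678 to 0.177). Other settings added calls, of LHX1 without the cell line block (limma adjusted p = 0.0456) or with quantile normalization (0.04997), of TLX3 with the RASS lines exchanged (0.0226) and of PTF1A without the H1 dorsal library (0.0110).

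Neurons of both kinds were compared with srNMPs of both passages. In srNMPs the 8 factors were low: LHX1 and LHX5 had 0 or 1 fragments in 3 of 4 libraries and 0.650 and 1.61 FPKM in HUES9 at passage 25, and PTF1A was at 0.124 FPKM or less. POU4F1 had 4.98 FPKM in H1 at passage 8 and 0.236 to 0.703 FPKM in the other 3, and TLX3 1.63 FPKM in the same library and 0 to 0.359 FPKM in the others. LMX1B (0.716 to 1.80 FPKM) and LBX1 (0.989 to 9.47 FPKM) were present in all 4. Of the 8, 7 were higher in neurons (6 of 7 without PTF1A), where 52.1% of genes were called, 28.8% higher and 23.2% lower, and LHX1 (3.93 ± 0.36, limma adjusted p = 0.000313) and LHX5 (2.80 ± 0.49) had the largest changes. The neuron mean joins dorsal and ventral neurons. LHX1 alone of the 8 was above all 4 srNMP values in both ventral libraries, both ventral values of LMX1B were below all 4, and the ventral values of the other 6 overlapped those of srNMPs. LBX1 was not called (1.35 ± 0.62, limma adjusted p = 0.106). Without the HUES9 ventral library it was (1.92, limma adjusted p = 0.0433), and likewise with only these libraries (0.0380) or without both RASS libraries (0.0466). POU4F1 lost its call in 7 of 8 cases when 1 library was left out (limma adjusted p = 0.0833 to 0.139), with a pseudocount of 0.1 (0.0792) and without the filter (0.0706). TLX3 lost its call with a pseudocount of 0.1 (0.0936).

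LBX1 was examined in muscle because of its role in migratory muscle precursors. The muscle libraries had 0.895 FPKM at day 40 and 1.17 FPKM at day 50, or 55 and 69 fragments. The HUES9 srNMPs had 3.49 FPKM at passage 8 and 9.47 FPKM at passage 25, the H1 srNMPs 0.989 and 2.33 FPKM, and the ESC library 0.171 FPKM. The muscle values were thus below both HUES9 srNMP values and close to the lower H1 value. LBX1 was not called between muscle and srNMPs (log2 change -1.51 ± 0.80, limma adjusted p = 0.160). Of the 8 factors 0 were called there by limma (0 at an unadjusted p under 0.05), where 49.8% of genes were called, 18.2% higher and 31.6% lower. LBX1 was called lower with only those libraries (-1.76, limma adjusted p = 0.0364). Since each muscle day has 1 library, the muscle libraries add nothing to the estimated spread, and p does not measure variation between muscle cultures.

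By contrast, muscle genes were high in the same muscle libraries. MYOD1, a myogenic determination factor, had 67.3 FPKM at day 40 and 126 FPKM at day 50 and was listed at 0 in all 4 srNMP libraries. MYOG, which drives differentiation, had 312 and 539 FPKM, and MYF6 2.10 and 3.11 FPKM. MYF5 was listed at 0 at day 40, had 0.777 FPKM at day 50, and was not tested. All 13 muscle differentiation genes tested rose over srNMPs, where 18.2% of all genes were called higher. Any gene that reached 1 FPKM only in muscle was tested because of its muscle values, so that its rise followed from passing the filter. Of 10 genes of migratory muscle progenitors 6 rose, led by MEOX2 (5.29 ± 0.09), EYA2 (2.86 ± 0.37) and EYA1 (1.37 ± 0.25), and MET, the receptor required for migration, rose from 0.491 to 2.62 FPKM in the srNMP libraries to 3.92 and 7.23 FPKM (1.36 ± 0.20). CXCR4 fell (-2.73 ± 0.58). PAX3, which acts upstream of LBX1, had 2.12 and 1.90 FPKM in muscle and 2.21 to 29.4 FPKM in srNMPs (limma adjusted p = 0.165), and PAX7, a satellite cell factor, had 1.36 and 17.1 FPKM in muscle and 0.420 to 9.57 FPKM in srNMPs (limma adjusted p = 0.219).

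**Figure D5:**
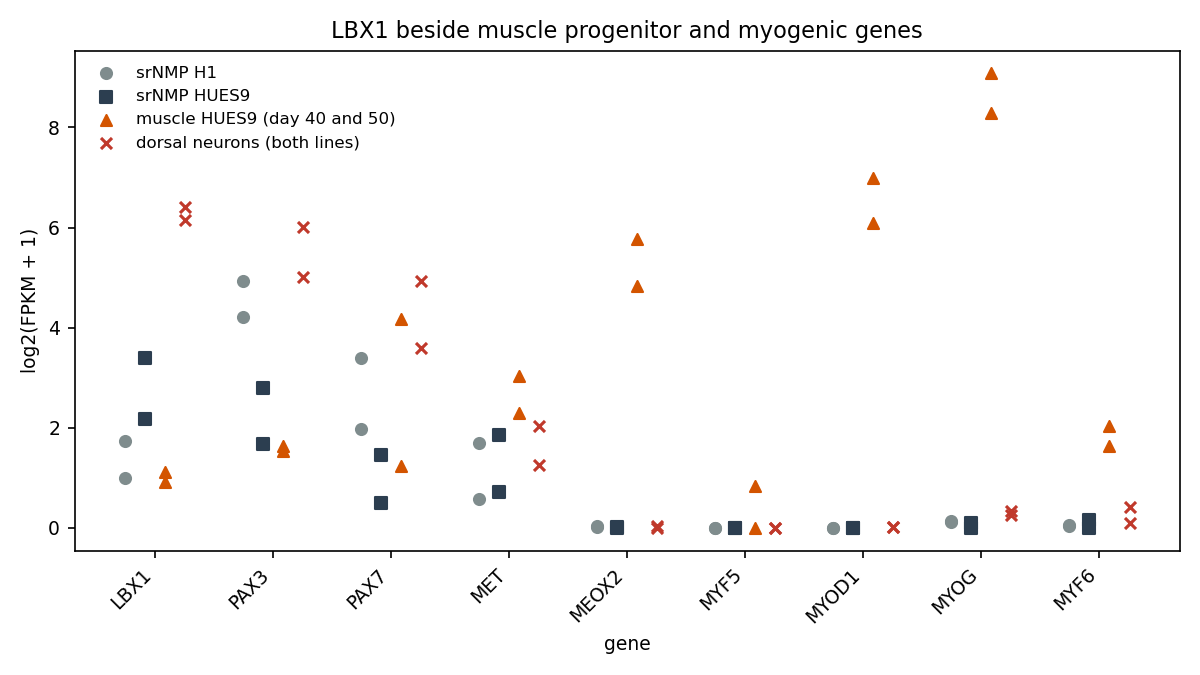
Levels of LBX1 and of muscle progenitor and myogenic genes (log2(FPKM + 1), vertical axis) in srNMPs of H1 and HUES9, in HUES9 muscle at day 40 and day 50, and in dorsal neurons; each point is 1 library. LBX1 is highest in dorsal neurons, at 70.3 and 84.6 FPKM, and near 1 FPKM in muscle, where MYOD1 and MYOG are high.

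The other factors were low in muscle. TLX3 and PTF1A were listed at 0 at both days and GBX1 at 0 and 0.132 FPKM. LHX1 and LHX5 were at 0.0421 FPKM or less, or 1 to 4 fragments. LMX1B had 1.12 and 1.67 FPKM, within the range of the 4 srNMP libraries (0.716 to 1.80 FPKM), and POU4F1 0.108 and 0.732 FPKM. LHX2 and LHX9 were low too, although each had its highest value of the 15 libraries in muscle. LHX2 had 0.364 and 0.50 FPKM in muscle (31 and 41 fragments), with 0.459 FPKM in HUES9 srNMPs at passage 8, and LHX9 had 0.472 and 0.230 FPKM (147 and 69 fragments), above its values of 0 to 0.00310 FPKM in srNMPs. Both were under 1 FPKM and so outside the test. Fitted without the filter, LHX9 was higher in muscle than in srNMPs (0.49 ± 0.12, limma adjusted p = 0.0183), with LHX2 at 0.25 ± 0.14 (limma adjusted p = 0.210).

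Against the neurons of both kinds, 7 of the 8 factors were lower in muscle (6 of 7 without PTF1A), where 46.5% of genes were called, 14.6% higher and 31.9% lower. LHX1 (-4.10 ± 0.46), LHX5 (-3.24 ± 0.64) and LBX1 (-2.86 ± 0.80, limma adjusted p = 0.0232) had the largest changes, and POU4F1 was not called (-2.07 ± 0.80, limma adjusted p = 0.0709). POU4F1 was called without the cell line block (-2.36, limma adjusted p = 0.0346), with only the libraries compared (0.0169), with the RASS lines exchanged (0.0214) and without both RASS libraries (0.0260). Fitted without the filter, LHX9 went the other way and was higher in muscle than in neurons (0.39 ± 0.12, limma adjusted p = 0.0433), with LHX2 at 0.40 ± 0.14 (limma adjusted p = 0.0613). The ventral values alone were LBX1 at 1.07 and 0.0339 FPKM and LMX1B at 0.386 and 0.291 FPKM, so LMX1B stood higher in both muscle libraries than in both ventral ones. Without the day 40 library LBX1 (limma adjusted p = 0.0751), LMX1B (0.142) and TLX3 (0.0559) were not called, and without the day 50 library LBX1 (0.0561), LMX1B (0.0648) and TLX3 (0.0507) were not. LMX1B was also not called without the H1 dorsal (0.0638), H1 ventral (0.0644) or HUES9 ventral (0.0995) library, TLX3 not without the last (0.0694), and LBX1 not with the RASS lines exchanged (0.0799). A pseudocount of 0.1 ended the calls of LBX1 (limma adjusted p = 0.146), LMX1B (0.178) and TLX3 (0.0719). Fitting only the libraries compared ended those of LMX1B (0.0718), TLX3 (0.0693) and PTF1A (0.0816), and LMX1B was also not called without the filter (0.0593) or with quantile normalization (0.0508).

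The order of the groups was read for LBX1. Mean levels were 77.4 ± 10.1 FPKM (SD, n = 2) in dorsal neurons, 5.90 ± 5.05 in srNMPs at passage 25, 4.87 ± 6.61 in RASS, 2.91 ± 1.49 in RABC and 2.24 ± 1.77 in srNMPs at passage 8. They were 1.17 and 0.895 FPKM in the muscle libraries, 0.554 ± 0.735 (SD, n = 2) in ventral neurons and 0.171 FPKM in the ESC library. Below the dorsal neurons, neighbouring groups with both lines did not differ by more than the larger of their standard deviations. In both srNMP pairs, the RABC pair and the RASS pair as labelled, LBX1 was higher in HUES9, and in dorsal and ventral neurons it was higher in H1.

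The ESC library gives the level of each factor in undifferentiated HUES9 cells, and H1 had no such library. LHX5 had 2.34 FPKM there, or 212 fragments, and LMX1B 1.99 FPKM, or 414 fragments. The other 8 were at 0.309 FPKM or less, and LHX9 was listed at 0. LHX5 in ESCs was thus above all 4 srNMP values and both ventral neuron values.

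The genes whose levels followed each factor most closely over the 15 libraries were found by Pearson's r of log2(FPKM + 1), given as a description, since the 2 dorsal libraries carry most of the variance and libraries of a line share their source. For LMX1B the first was TLX3 (r = 0.95, n = 15), and for TLX3 it was DRGX (0.95), then LMX1B. For POU4F1 it was TFAP2A (0.96), for GBX1 GSX2 (0.96), for LHX1 DHRS3 (0.96), a retinaldehyde reductase gene, for LHX5 SLC6A5 (0.94) and for LBX1 GBX1 (0.89). For PTF1A it was GCG (0.97), followed by POU4F2. Without the library where each was highest (n = 14), DRGX stayed first for TLX3 (0.92), TFAP2A for POU4F1 (0.95), DHRS3 for LHX1 (0.93) and SLC6A5 for LHX5 (0.91), while LBX1 was led by ABHD3 (0.82), LMX1B and GBX1 by POU4F2 (0.92 and 0.95) and PTF1A by GSX2 (0.96). The gene nearest to LBX1, LMX1B, GBX1 and PTF1A thus depended on a single library, while that nearest to the other 4 stayed first. Between any pair of the 8, r was 0.77 to 0.95.

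The table lists 1 value per gene symbol, and 6 of the 10 factors (LBX1, TLX3, POU4F1, LHX1, LHX5 and LHX2) overlap a gene on the opposite strand in the GENCODE 29 annotation, among them LBX1-AS1 and LHX5-AS1. The library kit keeps strand, but whether counting used it is not given in the sources used here. If it did not, fragments of a factor and of its antisense partner cannot be told apart. LMX1B and LHX2 also overlap a gene on the same strand (AL161908.2 and AC006450.1), which strand cannot separate.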

How the data were processed

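Messenger RNA of 15 cultures was sequenced from TruSeq Stranded libraries, per the labels' protocols. The submitters' processing notes name build hg18 and the tools Cufflinks, HTSeq, HISAT2 and Trimmomatic. Versions, roles and strand settings are not given in the sources used here. The authors deposited FPKM for 17999 gene symbols, taken as listed. 1 column matched no sample and was not used. Genes are named by symbol, and promoter coordinates are those of RefSeq GRCh38.p14, with 6 of 10 factors matched.

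Genes at 1 FPKM or more in at least 1 library were kept (14129), and 1 was added before log2. limma 3.58.1 in R 4.3.3 fitted 9 group means and a cell line term (the replicate block), letting the variance follow the level, with 5 residual and 2.16 prior degrees of freedom. Replicate 1 is H1 and replicate 2 is HUES9, so the pairing comes from the cell line in the labels. It was checked by the correlations of line differences given in the report, and the RASS pair did not pass this check, since its correlations were negative. ESC, day 40 and day 50 muscle have 1 library each and borrow their spread from the remaining groups. Whether cultures were independent is not in the labels, so p-values measure the spread between these libraries, which may be technical. Tests were two-sided, with Benjamini-Hochberg adjustment across the whole table, and genes were called at an adjusted p under 0.05. Changes are on the log2(FPKM + 1) scale, which understates low genes. The script was tested on simulated data.

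The 10 factors and the gene lists were chosen with earlier results of these data known. Named are all 10 factors and, per list, the called genes with the 4 largest changes at 1 FPKM or more, plus class markers chosen by name. Of the listed genes, 4 are not reported here and are left out of the lists' counts, medians and sums. TLX1, OLIG3 and NEUROG1 are named beyond that rule. Of the 15 lists, those of forebrain and midbrain and of serotonergic genes had 0 called by limma in dorsal against ventral neurons (0 of 9 and 1 of 1 at an unadjusted p under 0.05), and of 12 LIM cofactor genes TCF12 was called higher. The share of all genes called higher there was 0.573%. Fragment multiples were found by scaling the libraries on low values: 97.5% of 1648 values over 427 genes were whole within 2%. Alternatives were another pseudocount (0.1), no filter, no block, only the libraries compared, equal summed FPKM, quantile normalization and leaving out each library. Exchanging the RASS lines and leaving out both RASS libraries were added after seeing the data.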

Additional observations from a re-analysis of the deposited data

Results flagged for a closer look

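In the 4 srNMP libraries, 1 library stood apart from the other 3 for 4 of the factors. POU4F1 had 4.98 FPKM in H1 at passage 8, LHX1 had 0.650 FPKM and LHX5 1.61 FPKM in HUES9 at passage 25, and PTF1A had 0.124 FPKM, or 7 fragments, in HUES9 at passage 8. The cutoff used is set for about 1 in 20 groups of 4 like samples, and these 4 libraries differ in line and passage. How often chance would set a library apart here was not tested.

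The change from RABC to dorsal neurons differed from that from RASS to ventral neurons for LMX1B (4.39 on the log2 scale) and GBX1 (2.87), by the test of the difference given in the report.

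In some comparisons the H1 and HUES9 pairs, as labelled, moved in opposite directions, and this difference between the lines was not tested. From RASS to ventral neurons LBX1 changed by 0.80 in the H1 pair and -3.35 in the HUES9 pair, and LHX1 by 0.94 and -0.24. From RABC to RASS LBX1 changed by -1.26 in the H1 pair and 1.09 in the HUES9 pair, LMX1B by -0.63 and 0.52, POU4F1 by -2.97 and 0.75, LHX1 by -1.17 and 1.17, and LHX5 by -0.66 and 1.46. Each of these pairs contains a RASS library, whose line label the other pairs contradict. With the RASS lines exchanged, the pairs moved the same way for LBX1 (-2.35 and -0.21) and LHX1 (0.00436 and 0.70) from RASS to ventral neurons and for POU4F1 (-1.02 and -1.19) from RABC to RASS. They still moved in opposite directions from RABC to RASS for LBX1 (1.89 and -2.06), LMX1B (0.50 and -0.61), LHX1 (-0.23 and 0.23) and LHX5 (1.17 and -0.37).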

How the results depend on the processing

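No call of a factor reversed direction under any alternative. Counts of genes called moved by more than 1.5 times in these cases. With only the libraries compared they were 57 (288 as reported) for dorsal against ventral neurons, 47 (73) for RASS against RABC, 2307 (7034) for muscle against srNMPs and 12 (77) for the difference between routes, the change from RABC to dorsal neurons minus that from RASS to ventral neurons. RASS against RABC gave 46 without the filter and 113 with the RASS lines exchanged, and the difference between routes 20 with a pseudocount of 0.1 and 127 with the RASS lines exchanged. The share higher in dorsal against ventral neurons was 28.1% as reported, 43.4% with quantile normalization and 54.4% with only the libraries compared, and leaving out 1 library moved it from 13.8% (no ventral HUES9) to 55.3% (no dorsal H1). It was 61.1%, 74.7% (equal summed FPKM) and 48.9% (quantile) for dorsal neurons against RABC, 55.4%, 72.1% and 44.8% for neurons against srNMPs, 36.5%, 49.4% and 42.3% for muscle against srNMPs, and 31.3%, 31.2% and 46.2% for muscle against neurons. For ventral neurons against RASS it was 58.0% and, with quantile normalization, 46.4%. Equal totals moved the median change of all genes from 0.05 to 0.29 for neurons against srNMPs, from -0.22 to -0.01 for muscle against srNMPs and from 0.02 to 0.16 for dorsal neurons against RABC. Quantile normalization moved it to -0.06 for neurons against srNMPs and from -0.34 to -0.10 for muscle against neurons.

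Estimates near 0 that were not called changed sign. For RASS against RABC these were LHX1 (0.0513 with a pseudocount of 0.1, 0.0725 at equal totals), LMX1B (0.0147 at equal totals) and TLX3 (-0.0132 with quantile normalization). For muscle against srNMPs POU4F1 became 0.157 with only those libraries, 0.0846 with the RASS lines exchanged and 0.0115 without both RASS libraries.

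Without the replicate block 356 genes were called between dorsal and ventral neurons (288 with it), 2748 for dorsal neurons against RABC, 3591 for ventral neurons against RASS, 96 for RASS against RABC, 7524 for neurons against srNMPs, 7390 for muscle against srNMPs, 7178 for muscle against neurons and 112 for the difference between routes. Of the factors, leaving out the block added 2 calls, of POU4F1 between muscle and neurons (-2.36, limma adjusted p = 0.0346) and of LHX1 for the difference between routes (limma adjusted p = 0.0456), and changed no other.

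Leaving out 1 library at a time gave 137 (no dorsal HUES9) to 398 genes called between dorsal and ventral neurons, 347 (no dorsal H1) to 1632 for dorsal neurons against RABC, 1160 (no RASS labelled H1) to 2304 for ventral neurons against RASS, 8 (no RABC H1) to 73 for RASS against RABC, 5392 to 7674 for neurons against srNMPs, 5036 to 7494 for muscle against srNMPs, 4492 to 6178 for muscle against neurons and 6 (no RABC H1) to 182 (no ventral HUES9) for the difference between routes. Uncalled estimates that changed sign ranged as follows. For ventral neurons against RASS they were LBX1 -2.61 to 0.0605, TLX3 -1.17 to 0.47, POU4F1 -2.81 to 0.20, LHX1 -0.20 to 0.90 and PTF1A -0.0323 to 0.32. For RASS against RABC they were LBX1 -1.42 to 1.25, LMX1B -0.84 to 0.73, TLX3 -0.78 to 0.86, POU4F1 -2.62 to 0.40, LHX1 -0.85 to 0.85 and LHX5 -0.54 to 1.34. For muscle against srNMPs they were POU4F1 -0.92 to 0.10, GBX1 -0.23 to 0.0351, LHX1 -0.31 to 0.11 and LHX5 -0.67 to 0.00460. The cause of these shifts was not tested beyond the smaller number of libraries. PTF1A, LHX2 and LHX9 rest on few fragments in most libraries, which limits their comparison.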
